A study of Mus musculus with 125 samples.

Results

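The regions described here are 287 ATAC-seq peaks whose accessibility was higher with natural killer (NK) cells in all 4 mouse leukaemia lines at both time points. ATAC-seq counts DNA fragments released by a transposase, so a peak with more fragments is a stretch of more accessible chromatin. The members were chosen by measured values: on chromosomes 1 to 19, a consensus peak with a mean of 1 or more counts per 1000000 counts in peaks of its library (CPM) qualified when the NK minus alone difference in mean log2(CPM + 0.5) was 0.58 or more in each line at each time point. Of 256400 consensus peaks, 110249 met the conditions on chromosome and level, and 287 of these, or 0.26%, met the rule, which are called members below. Because NK minus alone chose them, that difference is described and not tested.

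Lines A and B carry DNA barcode libraries in one parental B cell acute lymphoblastic leukaemia (B-ALL) line, and lines C and D in another. Both parental lines were made by BCR/ABL transformation of bone marrow from wild-type C57BL/6 mice, so each pair of lines stands for 1 transformed culture. The leukaemic cells were kept alone (Tumor_only) or with IL-2-activated primary mouse NK cells (Tumor_plus_NK) and the barcoded GFP+ cells were sorted before library preparation; the labels of these libraries give no NK cell genotype. All cultures, those alone included, held recombinant human IL-2, and fresh NK cells were added again when cells were passed on after the first harvest. By the labels, time point 1 (TP1) was day 4 and time point 2 (TP2) day 10, while experiment 9.7 was sampled later, on days 6 and 16. All days here are taken from the labels. For TP2 the paper names day 14, which no label has. Its methods give a range of harvest days that holds day 16 but not day 10, so the day of TP2 is uncertain. Cells alone were sampled at TP1 only, so a longer time in culture and a longer time with NK cells cannot be told apart in any value at TP2. There were 125 libraries in 42 groups, from 14 combinations of line and experiment, with 3 replicates in 41 groups and 2 in the other. Experiments 9.5, 9.6 and 9.7 held all 4 lines, while 9.5.1 held line C only and 9.6.1 line D only.

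NK cells release interferon gamma, and cells that sense it activate transcription factors through JAK kinases. Some of these factors bind gamma-activated sites (GAS), and the interferon regulatory factors made in response bind interferon-stimulated response elements (ISRE), whose core is a repeat of GAAA spaced by any 2 bases. Target genes include the immunity-related and guanylate-binding GTPases, which attack the vacuoles of intracellular pathogens, antigen presentation genes and feedback inhibitors such as SOCS1.

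The sequences below are 90 bases each, read from the GRCm38.p6 genome on the plus strand, and they show examples of these cores in leading members. Those of Ubd, Nrxn3 and both intergenic members lie outside the central 500 bases that are counted below, and the leading members at Serpina3f and at chr9:41439063-41440217 held neither an ISRE core nor a strict GAS anywhere. The capitals mark an ISRE core (GAAANNGAAA or its reverse complement) or a strict GAS (TTCCNGGAA). The first lies upstream of Ubd and holds both, the second lies in the Ms4a cluster, the third is intergenic, the fourth lies in an intron of Nrxn3 and holds a pyrimidine-rich run of overlapping cores whose last one is cut by the end of the 90 bases, the fifth lies in an intron of Rbms1, the sixth is intergenic and again holds both, and the last lies within 3 kb of a start site of Nfkb1.
Ubd upstream, chr17:37185688-37185777: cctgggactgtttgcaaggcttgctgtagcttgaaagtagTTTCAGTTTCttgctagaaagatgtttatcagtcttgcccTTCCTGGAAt
Gm8369, chr19:11494684-11494773: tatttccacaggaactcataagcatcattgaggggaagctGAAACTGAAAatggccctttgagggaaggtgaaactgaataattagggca
Intergenic, chr7:74684118-74684207: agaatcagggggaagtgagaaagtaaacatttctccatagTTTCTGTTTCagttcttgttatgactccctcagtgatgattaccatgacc
Nrxn3 intron, chr12:89765424-89765513: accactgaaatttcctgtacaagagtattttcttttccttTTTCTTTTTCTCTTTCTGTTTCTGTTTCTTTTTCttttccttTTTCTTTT
Rbms1 intron, chr2:60801354-60801443: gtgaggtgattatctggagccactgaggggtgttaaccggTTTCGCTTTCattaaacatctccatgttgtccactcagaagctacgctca
Intergenic, chr14:40681910-40681999: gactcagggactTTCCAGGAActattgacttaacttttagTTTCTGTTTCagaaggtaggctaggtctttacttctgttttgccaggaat
Nfkb1, chr3:135666267-135666356: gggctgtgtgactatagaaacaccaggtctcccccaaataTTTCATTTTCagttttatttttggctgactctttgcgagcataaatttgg

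The ISRE core was the sequence feature that set the members apart most, and the rule did not use it. In the central 500 bases it was present in 113 of 287 members (39.4%, Wilson 95% interval 33.9 to 45.1%, counting error only), against 7090 of 110249 peaks (6.43%). More than 1 core was found in 19 members (6.62%), against 0.668% of all peaks. Searched over whole peaks, 191 members (66.6%) held a core against 17.0% of all peaks, and per kilobase the members held 0.592 cores against 0.152, so the difference remained when the greater width of members (median 1521 bases against 1290) was taken into account. The cores lay towards the centre of members: 74 of them, or 55.6%, were within 100 bases of it, against 41.3% in all peaks. Members at transcription start sites and elsewhere both held it, in 31.7% of the 60 members with a start site within 3 kb and in 41.4% of the 227 others (5.41% and 6.78% of all such peaks). In the locus around Iigp1 on chromosome 18, which has the largest gain, most members held no core in the central 500 bases. Its leading member was among these.

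**Figure D1:**
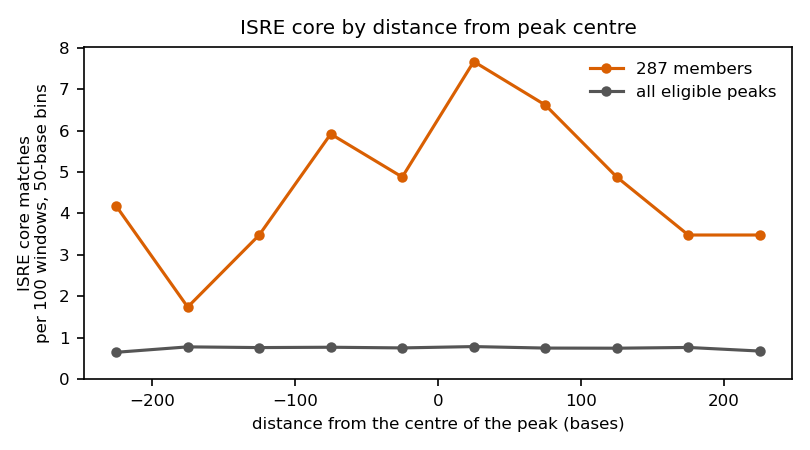
Matches to the ISRE core per 100 windows (y axis) in 50-base bins of distance from the peak's centre (x axis, bases), for the 287 members and for all 110249 peaks on chromosomes 1 to 19 with mean CPM of 1 or more. The line of the members lies above that of all peaks in every bin and peaks at 7.67 matches per 100 windows just right of the centre, while that of all peaks stays between 0.647 and 0.785.

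Other motifs differed less. The strict GAS was in 11 members (3.83%) against 1.75% of all peaks, and the relaxed GAS (TTCNNNGAA) in 56 members (19.5%) against 13.6%. An ETS-IRF composite core (GGAANNGAAA) was in 7.32% against 5.5%, the AP-1 site TGANTCA in 19.5% against 14.5%, the RUNX site TGTGGT in 41.8% against 36.5% and a kappa B site (GGGANNTTCC) in 1.74% against 1.91%. Sites of the B cell factor EBF1 (TCCCNNGGGA) were in 1.74% against 2.73%, and NRF1 sites (GCGCNNGCGC), which are common at housekeeping promoters, in 0.348% against 1.87%. All motifs were searched on both strands. The members were less GC-rich (median 45% against 50% of the central bases), and more of their sequence was soft-masked as repeats (median 16.2% against 10.8%).
Gains differed little with the motif. The median NK minus alone in A/B at TP1 was 1.56 for the 110 members with an ISRE core only, 1.46 for the 166 with neither and 1.74 for the 8 with a strict GAS only.
Peaks that met only part of the rule held the core at different shares. Of 502 peaks that reached the limit at both times in A and B and in none of the C and D values, 21.5% held an ISRE core in the central window. Of 16 peaks that reached it at TP1 in all 4 lines and at TP2 in none, 7 did (43.8%).

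Between 3083547 and 13580746 counts fell in consensus peaks per library. In 2 groups of line C a pair of replicates agreed within sampling noise (chi-square per degree of freedom 0.836 and 0.868, against 1.09 or more in all other pairs), and each pair was averaged and counted as 1 sample in the tests, which leaves 123 samples. Peaks at the start sites of all 12 B-ALL markers, such as Pax5 and Ebf1, had a median summed CPM between 557.7 and 652.6 in the 6 combinations of pair and arm. Of 22 NK cell markers, 17 had a peak near the start site and Ncr1, Klrk1, Klra7, Klra8 and Xcl1 had none. The summed CPM of the 17 had a median of 67.6 (range 57.1 to 76.9) in A/B alone, 78.6 (62.3 to 90.8) with NK cells at TP1 and 71.3 (54.1 to 81.9) at TP2. In C/D these medians were 68.0 (57.2 to 79.8), 70.8 (57 to 86.7) and 68.4 (56.9 to 89.6). The median CPM was above that alone for 13 of the 17 genes at TP1 and 11 at TP2 in A/B, and for 11 and 10 in C/D. Among the effector genes in A/B, Gzmb was at 2.03 alone, 3.75 at TP1 and 2.64 at TP2, and Gzma at 0.70, 1.33 and 1.26. Prf1 was at 2.25, 3.26 and 2.22 and Nkg7 at 4.17, 5.63 and 5.1. In C/D alone and at TP1, Gzmb was at 3.14 and 3.96, Gzma at 0.52 and 0.86, Prf1 at 3.1 and 3.29 and Nkg7 at 5.23 and 5.5. Lower at TP1 than alone in A/B were Eomes (15.48 against 15.51), Tbx21 (10.33 against 10.48), Klra1 (1.77 against 2.42) and Klrc1 (0.92 against 0.93). Klra4 had medians of at most 0.21 in every arm. T cell markers (9 of 10 with a peak) had medians from 68.5 to 79.5 over the 6 combinations. The summed CPM of myeloid markers (9 of 11) had a median of 27.1 (24.1 to 34.4) in A/B alone, 35.8 (30.3 to 42.1) at TP1 and 31.1 (24.6 to 41.7) at TP2, and of 34.7, 38.7 and 40.5 in the arms of C/D. Of the 9 myeloid genes, the median CPM was above that alone for 6 at TP1 and 5 at TP2 in A/B, and for 3 and 3 in C/D. Mpeg1 had a median of 6.45 alone and 11.44 at TP1 in A/B, and of 7.64 and 11.46 in C/D. The part of other cells in the members' gains was not tested.

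The gains were larger in A and B than in C and D. The median NK minus alone over the members was 1.63 in A, 1.42 in B, 0.95 in C and 1.04 in D at TP1, and 1.24, 1.13, 0.80 and 0.96 at TP2. Over all 110249 peaks the 8 medians lay between -0.04 and 0.13, the highest in line A at TP2, where another library scaling (TMM) brought it to -0.003. The mean of A and B exceeded that of C and D in 275 of 287 members at TP1 and in 236 at TP2, or in 264 and 219 with TMM. Over all 110249 peaks, the limit of the rule was reached at TP1 by 5.86% in A and 4.04% in B. In C and D these shares were 0.876% and 1.01%. At TP2 they were 5.55% in A, 2.2% in B, 0.664% in C and 1.08% in D. Larger gains in A and B were thus not confined to the members. The counts of 275 and 236 were not taken over all peaks and are not read as a trait of the members. In A/B the gain was smaller at TP2 than at TP1 in 254 members, and in C/D in 185 (254 and 223 with TMM).

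**Figure D2:**
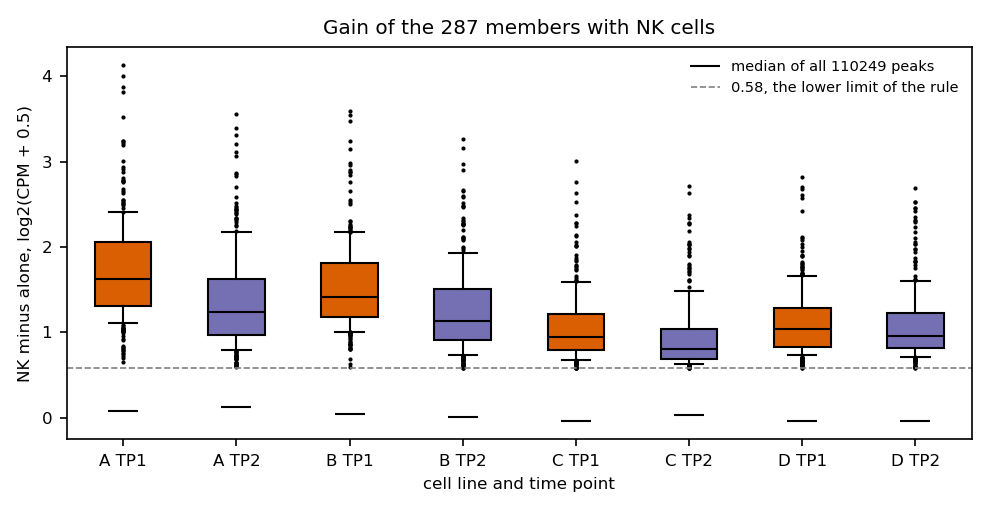
NK minus alone difference in mean log2(CPM + 0.5) (y axis) of the 287 members in each line and time point (x axis). Boxes span the quartiles with the median, whiskers the 10th to 90th percentile, points are members beyond them, short bars near 0 are medians of all 110249 peaks and the dashed line is the limit of 0.58; line A at TP1 has the highest median, 1.63, and line C at TP2 the lowest, 0.80.

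The members just inside it were chr13:95566895-95567602 near F2rl1 and chr10:16914135-16915206, both with a lowest value of 0.581, and chr11:58210245-58211347 in Irgm2, with 0.582. Just outside were chr17:79034702-79035736 near Prkd3, chr10:128725119-128726669 in Dgka and chr10:77668815-77669360 near Tspear, with lowest values of 0.58, 0.579 and 0.578. The first of these missed the unrounded limit by less than the third decimal shows. All 6 lowest values were in C or D, apart from the one in Irgm2, which was B at TP2.

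Many members had a low level without NK cells. The median CPM alone was 2.21 for members, against 2.83 over all peaks, and the members' median percentile was 40.9. The limit of 1 CPM was a mean over all libraries, those with NK cells included, where the rule made members high. It thus bears on this percentile, and 34 members had a mean CPM alone under 1. The median over members of the median CPM was 1.95 in A/B alone, 7.87 with NK cells at TP1 and 6.14 at TP2, and 2.31, 5.81 and 5.42 in C/D. In 148 members none of the 18 A/B libraries of cells alone had a broad peak called there, and in 114 none of the 23 C/D libraries did. With NK cells at TP1 a broad peak was called in every library for 161 members in A/B and for 95 in C/D. Broad peaks were not counted in this way over all peaks, so these counts are not read as a trait of the members. The values of single libraries did not overlap between NK and alone for 202 members in A/B at TP1 (0.619% of all peaks), 75 at TP2 (0.111%), 52 in C/D at TP1 (0.0499%) and 27 at TP2 (0.0263%), and in 16 members for both pairs and times; the rule fixed this direction. In each of the 14 combinations of line and experiment the gain was above 0 at both times for 211 members and 0.58 or more for 40. The counts of 16, 211 and 40 were not taken over all peaks, so they are not read as a trait of the members.

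The members lay mostly inside genes or between them. Their centres were intronic in 159 (55.4%, against 40.8% of all peaks), intergenic in 62 (21.6% against 28.5%), within 3 kb of a start site in 60 (20.9% against 25.6%) and exonic in 6 (2.09% against 5.12%), by GENCODE M21. The median distance to a protein-coding start site was 23 kb, against 18.1 kb over all peaks. Chained within 100 kb, the members formed 222 loci, of which 194 held 1 member, 16 held 2 and 12 held 3 or more (61 members). Members were found on all 19 chromosomes, from 0.0976% of the peaks on chromosome 7 to 0.643% on chromosome 19 and 0.719% on chromosome 18.

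Interferon-induced GTPase genes took the largest part of the listed genes. With each peak assigned to the nearest protein-coding start site within 100 kb, 28 members (9.76%) fell to 9 of the 25 annotated GTPase genes, against 133 of all peaks (0.121%). Antiviral interferon-stimulated genes took 7 members (2.44% against 0.276%), interferon signalling and feedback 4 (1.39% against 0.27%: 3 downstream of Socs1, which inhibits JAK kinases, and 1 in Pias1), serpins and cell death regulators 4 (1.39% against 0.124%), the Ly6 and PLAAT genes 4 (1.39% against 0.0299%) and the NF-kB pathway 1 (0.348% against 0.133%). No member fell to the lists of MHC class I presentation (75 peaks in all), MHC class II presentation (59), immune ligands and checkpoints (194) or chemokines and cytokine signals (81). In all, 48 members (16.7%) fell to a listed gene, against 1461 of all peaks (1.33%). The lists were chosen with results of these data known, and the paper singled out Ly6a and Plaat3 partly for promoters that opened in this experiment. The shares of the lists, that of the Ly6 and PLAAT genes above all, are therefore not independent of the data. The nearest gene need not be the one a region acts on.

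The locus with the most members lay on chromosome 18 around Iigp1, which encodes an immunity-related GTPase, and its relatives Gm4951, Gm4841 and F830016B08Rik. It held 19 members over 239.9 kb. Its leading member, chr18:60373256-60377106, whose centre lay 848 bases upstream of an Iigp1 start site, had the largest mean gain of all members (3.06). In A/B its CPM was 0.89, 2.43 and 4.96 (lowest, median, highest of 18 libraries) alone, 23.1, 38.8 and 52.4 with NK cells at TP1, and 14.1, 24.8 and 39.3 at TP2. In C/D it was 1.12, 3.04 and 5.61 alone (23 libraries), 16.7, 24.1 and 41.0 at TP1 and 7.98, 23.2 and 34.1 at TP2 (24 libraries each). Every library with NK cells was above every library alone in both pairs. The next, chr18:60210405-60214646 at the start site of Gm4951, had median CPM of 1.76, 32.7 and 19.4 in the 3 arms of A/B, against 2.78, 19.3 and 17.9 in those of C/D. The members at the start sites of Gm4841 and F830016B08Rik gained 3.10 and 2.98 in A/B at TP1, against 2.47 and 2.11 in C/D. Genes of this cluster are near copies of each other, so reads may have been split or lost between them.

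The other GTPase loci gained less. In the Gbp cluster on chromosome 5, 6 members spanned 73.5 kb. The one at the start site of Gbp10, chr5:105238774-105241260, had median CPM of 4.18 alone, 24 at TP1 and 13.4 at TP2 in A/B, against 5.51, 15.3 and 10.3 in C/D. Its leading member, chr5:105259994-105264164, had 2.77, 20.7 and 13.3 in A/B, against 4.05, 12.2 and 10.7 in C/D. On chromosome 11, chr11:48925668-48928802 at the start site of Gm12185 gained between 0.94 (line C at TP2) and 1.87 (line A at TP1), and chr11:48989480-48990673, which lies in Gm12185, Olfr56 and Tgtp1, between 1.08 and 1.70. A further 3 members near Cnot8, Igtp and Irgm2 spanned 103.7 kb.

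The member upstream of Ubd, which encodes a ubiquitin-like modifier induced by interferon gamma, had the next largest mean gain among the loci (2.83). It spans chr17:37184493-37185997, over the olfactory pseudogene Olfr753-ps1, with its centre 8647 bases upstream of the Ubd start site. Its CPM in A/B was 0.18, 0.72 and 1.83 alone, 8.87, 15.5 and 24.5 at TP1, and 3.27, 8.19 and 16.7 at TP2. In C/D it was 0.16, 1.07 and 2.24 alone, 5.52, 8.12 and 15.5 at TP1, and 2.10, 5.91 and 19 at TP2. The C/D libraries at TP2 came closest to those alone, with the lowest at 2.10 under the highest alone at 2.24.

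Serpina3f and Serpina3g, which encode protease inhibitors of the serpin family, held 3 members within 23.4 kb. At the start site of Serpina3f, chr12:104213544-104215139 had CPM of 0.34, 1.37 and 2.47 in A/B alone, 6.58, 12.7 and 18.8 at TP1 and 10.7, 17.2 and 33.3 at TP2. In C/D it had 1.28, 3.79 and 7.84 alone, 10.5, 18.2 and 29.5 at TP1 and 12, 25.9 and 44.6 at TP2. The groups did not overlap between NK and alone in either pair, and here the later time point was the higher. At Serpina3g, chr12:104234916-104236894 gained between 1.22 and 1.98 over lines and times.

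The Ms4a cluster on chromosome 19, whose genes encode membrane-spanning proteins of leukocytes, held 7 members over 118.4 kb. In its leading member, chr19:11494003-11495504 in Gm8369, the CPM was 0.22, 0.58 and 1.34 in A/B alone, 4.65, 8.65 and 11.8 at TP1, and 4.29, 6.40 and 14.9 at TP2. In C/D it was 0.41, 1.40 and 2.96 alone, 6.77, 9.6 and 12.4 at TP1, and 6.31, 9.72 and 19.1 at TP2. NK and alone did not overlap in either pair. The start site of Ms4a6b, chr19:11516796-11519523, gained between 1.53 and 2.22, and a member in Ms4a6d, chr19:11601354-11602556, between 0.83 and 1.33.

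**Figure D3:**
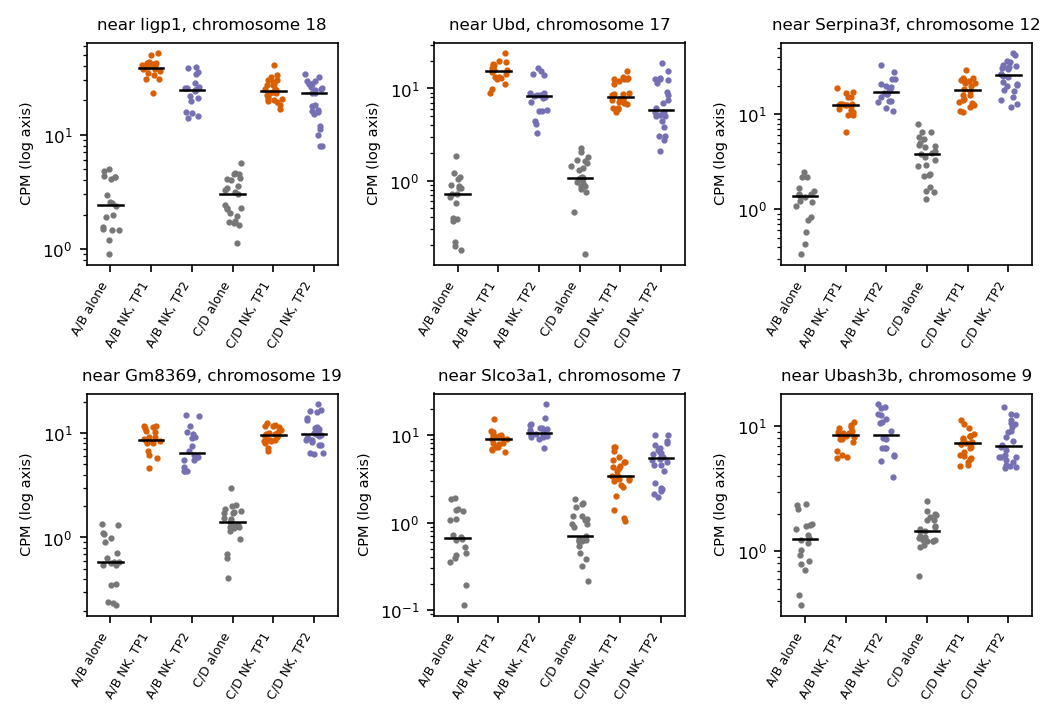
CPM on a log axis (y) in every library, by pair of lines and arm (x), for the leading members of the 6 loci with the largest mean gain. Points are libraries (18 in each A/B arm, 23 or 24 in each C/D arm) and bars are medians; libraries alone (grey) lie below those with NK cells at TP1 (orange) and TP2 (purple), with overlap only for Ubd at TP2 and Slco3a1 at TP1, both in C/D.

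Among antiviral genes, the start site of Mx1, which encodes an antiviral GTPase, lay in chr16:97461675-97464216. Its median CPM was 2.49 alone, 9.24 at TP1 and 11.1 at TP2 in A/B, against 7.33, 17.4 and 19.98 in C/D. The start site of Lgals3bp, which encodes a secreted galectin-3-binding protein, gained between 0.92 and 1.53, and that of Phf11a between 0.60 and 1.68, with the higher values in A and B. At Ly6a, the gene of the surface antigen Sca-1, chr15:74995795-75000804 had median CPM of 18.2, 43.9 and 36.7 in A/B, against 16.0, 32.2 and 30.6 in C/D, the highest median of all members at TP1 in A/B. In Nfkb1, which encodes a subunit of NF-kB, chr3:135665200-135666941 lay 1729 bases downstream of a start site and gained between 1.25 and 2.52.

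The remaining leading loci were far from listed genes and each held a distal element. The member chr7:74682817-74684895, 129076 bases from the nearest coding start site, that of Slco3a1, had CPM of 0.11, 0.67 and 1.89 in A/B alone, 6.45, 8.93 and 15.4 at TP1, and 7.12, 10.6 and 22.8 at TP2. In C/D it had 0.21, 0.70 and 1.84 alone, 1.03, 3.43 and 7.31 at TP1, and 1.95, 5.42 and 9.98 at TP2. At TP1 the lowest C/D library with NK cells was below the highest alone, while A/B did not overlap. A 4-member locus spanned 80.8 kb in the non-coding gene 3110039I08Rik on chromosome 9, led by chr9:41439063-41440217, whose nearest coding gene is Ubash3b, 281578 bases away, with median CPM of 1.26, 8.56 and 8.56 in the 3 arms of A/B and 1.46, 7.28 and 6.97 in those of C/D. Intronic members in Zfhx3 (chr8:108316611-108318610), Nrxn3 (chr12:89764213-89765987) and Rbms1 (chr2:60800475-60802517), an intergenic one at chr14:40680770-40682517, and members in 1700017D01Rik (chr19:11107364-11108488) and Gm7135 (chr1:97412047-97412813) followed, with mean gains of at most 2.17. The other loci of 3 or more members were near Rab11fip2 (4 members, leading mean gain 1.72), Lrrc55 and Aplnr (1.48), Endod1 and Sesn3 (1.43), Ggact (1.42), Ly6a and Ly6c1 (1.21), Igtp and Irgm2 (1.19) and Socs1 (0.89).

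The change between the 2 time points in the cells with NK cells does not use the cells alone, and it was tested in each pair of lines. The same libraries also chose the members, and the rule bears on this change. A region had to keep a gain of 0.58 at TP2, so a fall past the fold threshold was possible only where the gain at TP1 was well above that limit, and the median gain at TP1 was 1.63 and 1.42 in A and B but 0.95 and 1.04 in C and D. The counts below therefore describe the members, and nothing is read from them against the shares of all peaks. In A/B more members were lower at TP2 than higher. Of 247 members tested, 34 (13.8%) were lower at TP2 by an adjusted p of 0.05 or less and a log2 fold change of 0.58 or more, against 1.52% of all 48997 peaks tested, and 3 were higher, against 0.112%. The count of 34 became 17 without replicate 1, 75 without replicate 2 and 26 without replicate 3. The fold change was below 0 in 215 and its median was -0.29, against 0.009 over all peaks. In C/D, where the rule left least room for a fall, none of 241 members was lower (0.438% of 55461 peaks), with 57 below 0 at an unadjusted p under 0.05 and 32 at an adjusted p of 0.05 or less, all short of the fold, and 3 were higher (0.207%). The median was -0.03, with 101 members above 0 and 140 below; DESeq2 gave the same counts of 3 and 0. Leaving out replicate 1 gave 1 higher and 3 lower, replicate 2 gave 7 and 0, and replicate 3 gave 5 and 0.

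**Figure D4:**
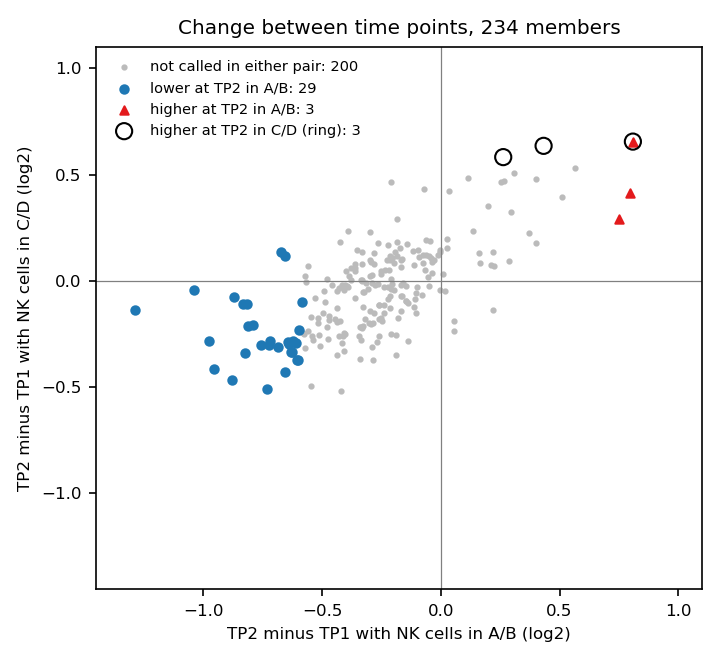
Log2 fold change from TP1 to TP2 with NK cells in A/B (x axis) and C/D (y axis) for the 234 members tested in both pairs, coloured by the edgeR call. Most points lie left of 0 and near 0 on the y axis; 29 were called lower in A/B, 3 higher in A/B and 3 higher in C/D (rings), of which 1 was higher in both.

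The members' values differed from one experiment to another. In A/B the members' median change was -0.05 in experiment 9.5, -0.23 in 9.6 and -0.51 in 9.7, where the days were later, with 6, 33 and 95 members called lower (0.427%, 2.68% and 3.24% of all peaks). In C/D it was 0.42, -0.02 and -0.39, with 76 members (31.5%) called higher in experiment 9.5 and 93 (38.6%) called lower in 9.7. Calls were also common over all peaks in these C/D fits: 8.89% were higher in 9.5, and 10.2% were lower and 8.18% higher in 9.7. The pooled C/D fit also held experiments 9.5.1 and 9.6.1, which were not fitted alone. Its median near 0 thus pooled opposite changes in experiments 9.5 and 9.7. Over all peaks tested, the median change stayed between -0.02 and 0.02 in each of the 6 fits of a single experiment.

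**Figure D5:**
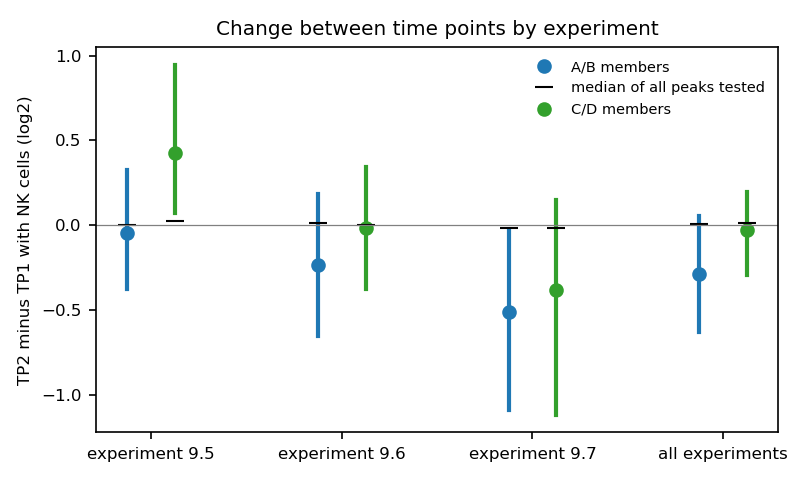
Median change from TP1 to TP2 with NK cells (log2, y axis) of the members, for A/B (blue) and C/D (green). The x axis holds experiments 9.5, 9.6 and 9.7 and all experiments together, which for C/D include 9.5.1 and 9.6.1. Vertical bars span the 10th to 90th percentile of members and black ticks are medians of all peaks tested; the C/D median goes from 0.42 in experiment 9.5 to -0.39 in 9.7 and the A/B median from -0.05 to -0.51.

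The largest falls in A/B were in the Gm4951 locus and in an intron of Cacna1d. The member chr18:60220274-60225466 fell by 1.29 (SE 0.16, adjusted p = 2.43e-08), chr18:60216459-60218302 by 1.1 (SE 0.14, adjusted p = 2.5e-08) and chr14:30068293-30069696 by 1.04 (SE 0.17, adjusted p = 1.53e-05). All 3 were below 0 in each experiment, and the Cacna1d member missed the threshold in experiment 9.5 (-0.31, adjusted p = 0.301). Of the 23 GTPase members tested, 9 fell, with a median of -0.49, among them the leading Iigp1 member (-0.61, SE 0.09, adjusted p = 4.36e-06), the start site of Gm4951 (-0.63, adjusted p = 1.58e-05) and that of Gbp10 (-0.72, adjusted p = 7.45e-06). The member upstream of Ubd fell by 0.83 (SE 0.12, adjusted p = 1.42e-06). In C/D, the largest falls stayed short of the fold threshold: -0.52 (adjusted p = 0.00768) at chr2:85156719-85158021 near Aplnr, -0.51 (adjusted p = 0.00585) in Tbc1d4 and -0.50 (adjusted p = 2.34e-05) upstream of Npepl1. The changes of the Aplnr and Tbc1d4 members were 0.25 and 0.29 in experiment 9.5, short of the threshold, and -1.52 and -1.87 in 9.7. In A/B, 20 of 99 members with an ISRE core in the central window and 14 of 148 without one were lower. These shares were not taken over all peaks with and without a core. The median gain in A/B at TP1, which sets the room for a fall, was 1.56 with an ISRE core only. It was 1.46 with neither an ISRE core nor a strict GAS, and nothing is read from the difference in calls.

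A few members rose with time. In the 3110039I08Rik locus, chr9:41359386-41360928 was higher at TP2 in both pairs, by 0.81 (SE 0.13, adjusted p = 4.89e-06) in A/B and 0.66 (SE 0.08, adjusted p = 4.77e-08) in C/D. Its change was above 0 in experiments 9.5, 9.6 and 9.7 of both pairs, from 0.48 to 1.19. The call was lost in A/B without replicate 2 (0.56, adjusted p = 0.00771) and in experiment 9.7 (adjusted p = 0.0983), and in C/D in experiment 9.6 (0.48) and with no filter on low counts (0.55). The others called higher in A/B were chr2:85167589-85168786 in Lrrc55 (0.80, adjusted p = 4.43e-07) and chr17:88560819-88562381 in Ppp1r21 (0.75, adjusted p = 9.71e-10). In C/D these were chr16:97469421-97470894, 7251 bases upstream of Mx1 (0.64, adjusted p = 3.87e-07), and the Zfhx3 intron (0.58, adjusted p = 0.00173), whose change was -0.28 in experiment 9.7 and which missed the threshold without replicate 1 (0.46, adjusted p = 0.0511). The Mx1 member also missed it without replicate 1 (0.57), with filterByExpr as the only filter (0.56), with no filter (0.53) and in experiment 9.7 (0.35, adjusted p = 0.077). The Serpina3f start site came close in both pairs, with 0.57 (SE 0.10, adjusted p = 3.66e-05) in A/B and 0.53 (SE 0.07, adjusted p = 1.08e-07) in C/D, under the fold threshold. It kept that direction within experiments, at 0.50, 0.52 and 0.64 in A/B, against 0.66, 0.47 and 0.65 in C/D. Over the 4 members of the serpin and cell death list the median change was 0.26 in A/B, against 0.47 in C/D, and none was called in either pair.

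Whether the change from TP1 to TP2 differed between the pairs was tested with an interaction term. The limit at TP2 left less room for a fall in C/D than in A/B, which favours a higher change in C/D among the members, so the counts and p-values here describe the members and the direction is not a result about them. Of 254 members tested, 18 had a change that was higher in C/D than in A/B (0.657% of 58886 peaks) and none a lower one (0.144%); at an adjusted p of 0.05 or less without a fold limit, 24 were higher and 1 was lower, the Ppp1r21 member, with 4 lower at an unadjusted p under 0.05. DESeq2 called 13 and none. The count of 18 rested on single replicates and on the filter: it was 1 without replicate 1, 24 without replicate 2, 2 without replicate 3, 10 with the replicate number as a block and 3 when more peaks with low counts were tested. All 17 of the 18 that were tested in A/B were below 0 there, 12 of them past the thresholds, and 6 of 14 tested in C/D were above 0. The largest differences were at the Gm4951 members (1.17, adjusted p = 0.0157 for chr18:60220274-60225466, and 1.15, adjusted p = 0.00112 for chr18:60216459-60218302) and the Cacna1d member (1.0, adjusted p = 0.00374). At chr18:60220274-60225466 the C/D change was 1.49 in experiment 9.5 and -2.45 in 9.7, so the pooled difference joined opposite changes. A member 6876 bases upstream of Igtp, chr11:58191029-58194331, had a difference of 0.82 (SE 0.16, adjusted p = 0.000525), with median CPM in A/B of 17.6 at TP1 and 9.40 at TP2 and in C/D of 9.19 and 9.08. Within experiments the difference at this member was 1.54 in 9.5, 0.84 in 9.6 and 0.007 in 9.7. Over all members, 92 were called higher in experiment 9.5 by itself, 3 in 9.6 and 2 in 9.7, against 10.5%, 0.156% and 0.639% of all peaks.

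Levels without NK cells were compared between the pairs of lines. Each pair stands for 1 transformed culture, so the p-values measure the spread between samples and not that between such cultures. The libraries alone entered the difference that chose the members, and a low level alone makes its limit easier to reach, so these values describe the members. In experiments 9.5, 9.6 and 9.7, 51 of 250 members tested (20.4%) were higher in C/D alone than in A/B alone, against 11.1% of 58748 peaks, and 17 (6.8%) were lower, against 4.39%. A peak could enter this test through a broad peak in a group with NK cells, where members are high. With filterByExpr as the only filter the counts were 36 (13%, against 9.03% of all peaks) and 25 (9.06%, against 3.73%). With no filter they were 36 (12.5%, against 6.21%) and 27 (9.41%, against 2.2%). Nothing is read from these counts against the shares of all peaks. Of the 7 members of the antiviral list, 4 were higher and 1 was lower, that nearest to Aim2, which encodes a sensor of cytosolic DNA (-0.97, SE 0.09, adjusted p = 1.12e-12). The Mx1 start site was higher by 1.35 (SE 0.12, adjusted p = 4.19e-15) and that of Phf11a by 1.24 (SE 0.12, adjusted p = 4.64e-13). The Serpina3f start site was higher by 1.44 (SE 0.18, adjusted p = 2e-09), the leading Ms4a member by 1.13 (SE 0.20, adjusted p = 2.69e-06) and the Gm4951 start site by 0.67 (SE 0.15, adjusted p = 0.000148). Of the 6 Ms4a members tested, 5 were higher. The Gm7135 member was lower in C/D by 1.2 on the log2 scale (SE 0.18, adjusted p = 1.27e-07) and the Zfhx3 intron by 0.72 (SE 0.18, adjusted p = 0.000694). The leading Iigp1 member differed by 0.15 (SE 0.14, 95% interval from -0.12 to 0.41), short of the threshold.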

How the data were processed

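ATAC-seq was done on sorted mouse B-ALL cells. According to the study's methods and the submitters' processing notes, the authors mapped reads to GRCm38 with STAR, marked duplicates with Picard 2.27.4, called broad peaks per library with MACS2 2.2.7.1, merged them into consensus peaks and deposited raw counts per consensus peak and library, from featureCounts. Per the methods, blacklisted regions were removed with a list given as GRCh38, a human build. The deposited broad peak lists hold each peak's −log10 q-value, of which only the presence of a peak was used here.

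The members and the gene, marker and motif lists were chosen with earlier results of these data known. Counts were scaled to counts per 1000000 counts in peaks (CPM), and the members were found by the rule given above. Each of the 110249 peaks that met the conditions on chromosome and level was placed by GENCODE M21. Motifs were searched in the central 500 bases of these peaks, in GRCm38.p6 sequence from RefSeq. Change between time points, its interaction with the pair of lines and the level alone were tested with edgeR 4.0.16 (R 4.3.3), by quasi-likelihood tests with TMM scaling, a term for each combination of line and experiment (experiment for the level alone) and Benjamini-Hochberg adjustment over all peaks tested. A peak was tested if all replicates of 1 or more groups had a broad peak there and it passed filterByExpr, which left 33 members in no fit. A call needed an adjusted p of 0.05 or less and a log2 fold change of 0.58 or more. SE is the fold change divided by the root of the F statistic. DESeq2 1.42.0 was an alternative, and the fits were tested on simulated data. The study states 3 biological replicates per condition and filtered to peaks near start sites, which was not done here. Intervals of shares cover counting error only, and the p-values measure the spread between these samples. Replicates were fitted as independent samples, with a change between time points common to all experiments. The p-values therefore do not measure how that change varied between experiments or between transformed cultures, and small ones overstate the certainty about either.

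Members were named by rule: the 12 loci with the largest mean gain, members within 3 kb of a start site of a listed gene, the 3 largest rises and falls in each pair, the 3 peaks on each side of the limit and loci of 3 or more members. The members upstream of Igtp, near Socs1 and in Pias1, and those named for the interaction, were chosen after their values were seen.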

Additional observations from a re-analysis of the deposited data

Results flagged for a closer look

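The change from TP1 to TP2 with NK cells differed between the pairs of lines by the edgeR interaction test in 18 members that were higher in C/D and 0 that were lower. These values also chose the members, and the limit at TP2 left less room for a fall in C/D than in A/B, which favours this direction. The largest differences, C/D minus A/B on the log2 scale, were at Gm4951 (1.167, adjusted p = 0.0157, at chr18:60220274 and 1.153, adjusted p = 0.00112, at chr18:60216459), in the Cacna1d intron nearest to Chdh (1.005, adjusted p = 0.00374, at chr14:30068293), near Ly6c1 (0.954, adjusted p = 0.00168, at chr15:75064993), near Npy (0.945, adjusted p = 0.0271, at chr6:49939412) and upstream of Igtp (0.821, adjusted p = 0.000525, at chr11:58191029). Within experiments the difference near Ly6c1 was 1.73 in 9.5, 0.66 in 9.6 and 0.73 in 9.7, and near Npy 0.92, 0.98 and 1.91.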

How the results depend on the processing

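The selection gave 257 to 302 members when 1 replicate was left out, 114 with a pseudocount of 2, 56 with a limit of 1, 514 in experiment 9.5 and 159 in 9.7. TMM gave 268, of which 248 were among the 287. Without experiments 9.5.1 and 9.6.1 the selection gave 365, of which 269 were among the 287. Leaving out replicates, A/B gave 2 to 5 members higher and 17 to 75 lower at TP2, C/D 1 to 7 and 0 to 3, the interaction 1 to 24 and 0 to 0, and the level alone 44 to 55 and 16 to 18. With experiments fitted apart, A/B gave 9 higher and 6 lower in 9.5, 5 higher in 9.6 and 95 lower in 9.7. C/D gave 76 higher in 9.5, 1 lower in 9.6 and 93 lower in 9.7, and the interaction gave 92 higher and 3 lower in 9.5, 3 higher in 9.6 and 2 in 9.7. With filterByExpr only, C/D gave 1 higher and 3 lower and the interaction 3 higher; with no filter on low counts these were 0, 5 and 3, and 27 members were lower in C/D alone. The ISRE ratio of 6.13 became 7.3 in 300 bases and 3.89 per kb of whole peaks, and within 3 kb 20 members fell to listed genes. In C/D the change reversed at Aplnr (0.251) and Tbc1d4 (0.288) in experiment 9.5 and at Zfhx3 (-0.284) in 9.7. The cause of these shifts was not tested. Samples with the same replicate number did not deviate together (median correlation 0.022, over 0.1 in 28 of 124 pairs), so the numbers do not pair them; with the replicate block the interaction gave 10 higher, A/B 3 higher and 40 lower, and C/D 2 and 0. Of the other alternatives of the main results, 77 stayed within 1.5 times. Peaks with few counts limit the tests.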
